A study of Mus musculus with 8 samples.

Results

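The ribosome biogenesis module examined here holds 40 genes that encode subunits and initiation factors of RNA polymerase I (Pol I), the small nucleolar ribonucleoproteins (snoRNPs), abundant nucleolar proteins, and factors that assemble the small and the large ribosomal subunit. The genes were chosen by function, with earlier results of these data known. Their measurements were the array rows (probe sets) whose annotation named that gene alone. Of the 40 genes, 39 had such rows, 847 rows in all, out of 21656 genes measured with 307991 rows. Noc2l was not analysed here. The rows of Nop56 and Nop58 carry the older symbols Nol5a and Nol5 in the annotation.

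The samples were primary fibroblasts of mouse embryos, a connective tissue cell type, bought as a commercial stock. The hypoxia group was held in 1% oxygen for 24 h, and the normoxia group was held in atmospheric oxygen for the same time. Both groups were grown on 100 mm dishes in high glucose medium with serum, at 37 °C and 5% CO2, and no genotype, strain or embryonic age is given in the labels. Each group had 4 Mouse Exon 1.0 ST arrays, hybridised with cDNA amplified from 50 ng of total RNA, and with so few arrays the error of each value is wide. The comparison asks how the levels of these genes differ between fibroblasts with little oxygen and fibroblasts with normal oxygen.

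In the nucleolus, Pol I transcribes the repeated ribosomal DNA into a long precursor RNA. Box C/D and box H/ACA snoRNPs methylate and pseudouridylate that precursor, and large assemblies of proteins, the small subunit processome and the early large subunit particles, fold and cut it into the ribosomal RNAs. Making ribosomes takes a large part of the transcription and the energy of a growing cell, and the pathway is known to be controlled by growth signals, by Myc and by nutrient and oxygen supply.

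Myc and related factors bind the E-box CACGTG, and many ribosome biogenesis genes are known to carry it. The promoter windows of RefSeq (build GRCm38.p6, 250 bases before to 50 bases after each start) were therefore read for the measured genes. Windows were found for 34 of the 39 genes, and none was found for Bop1, Fbl, Npm1, Rrp12 and Rrs1. The windows of Nop2 (chr6:125131633-125131932, plus strand) and Nolc1 (chr19:46075597-46075896, plus strand) are shown because these genes carry the lowest fold changes among those with a window. CACGTG is in capitals and each reads 5′ to 3′.
Nop2: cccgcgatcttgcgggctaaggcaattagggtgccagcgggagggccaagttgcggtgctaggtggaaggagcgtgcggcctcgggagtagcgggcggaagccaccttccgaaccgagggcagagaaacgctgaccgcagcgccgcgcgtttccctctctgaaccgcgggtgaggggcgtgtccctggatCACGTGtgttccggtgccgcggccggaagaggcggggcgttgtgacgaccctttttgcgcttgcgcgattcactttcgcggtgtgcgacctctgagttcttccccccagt
Nolc1: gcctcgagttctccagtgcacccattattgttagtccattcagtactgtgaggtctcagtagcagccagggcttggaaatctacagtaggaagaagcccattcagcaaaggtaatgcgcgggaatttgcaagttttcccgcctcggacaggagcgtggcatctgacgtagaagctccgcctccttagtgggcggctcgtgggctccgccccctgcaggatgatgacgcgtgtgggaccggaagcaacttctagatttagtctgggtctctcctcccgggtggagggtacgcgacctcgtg

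The Nop2 window holds CACGTG at position -60, where the start is position 1 and the base before it is -1. The Nolc1 window does not hold these letters. CACGTG was found in 6 of the 34 genes (17.6%), against 8.09% of the 27025 genes with a window. The word reads the same on both strands. The sites of the other 5 genes are given with up to 10 bases on each side, to show where they lie, on the plus strand unless another is named.
Mybbp1a, chr11:72441357-72441376, position 41: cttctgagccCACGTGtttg
Utp20, chr10:88826765-88826787, minus strand, position 38: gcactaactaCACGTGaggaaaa
Wdr43, chr17:71616222-71616247, position 18: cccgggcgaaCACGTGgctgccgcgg
Pes1, chr11:3963967-3963992, position 3: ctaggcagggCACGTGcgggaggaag
Rrn3, chr16:13780474-13780499, position -215: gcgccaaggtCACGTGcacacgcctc
Rrn3, chr16:13780641-13780666, position -48: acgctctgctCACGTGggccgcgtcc

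ACGTG and GCGTG, the cores of the element bound by hypoxia-inducible factors, were searched in the same windows on both strands. ACGTG, which CACGTG contains, was in 32.4% of the 34 genes and in 21.8% of all genes with a window. Outside CACGTG it was in 14.7% of the 34 genes and in 15.3% of all. GCGTG was in 79.4% of the 34 genes and in 35.2% of all. The comparison was not matched for base composition and was not limited to genes measured on these arrays. These are matches of letters, and no binding was measured.

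The levels of the ribosome biogenesis genes were mostly somewhat lower in hypoxic fibroblasts, and 3 passed the test. A level is the mean log2 intensity over the rows of a gene, and a fold change is hypoxia over normoxia on that log2 scale. Rrs1, Nop2 and Nolc1 fell (limma, Benjamini-Hochberg adjusted p below 0.05 over all 21656 genes), and no gene of the module was called higher. Over all genes 1.2% were called lower and 1.0% higher by the same test. Of the 39 genes, 33 had a negative fold change (84.6%, against 57.0% of all genes), and their median fold change was -0.29, against -0.05 over all genes. At an unadjusted p below 0.05, 19 were lower, where 13.5% of all genes were, and 0 were higher, where 8.67% of all genes were. In 15 genes each hypoxia array lay below each normoxia array, as in 9.58% of all genes. In 0 genes each hypoxia array lay above, against 5.48% of all genes.

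**Figure D1:**
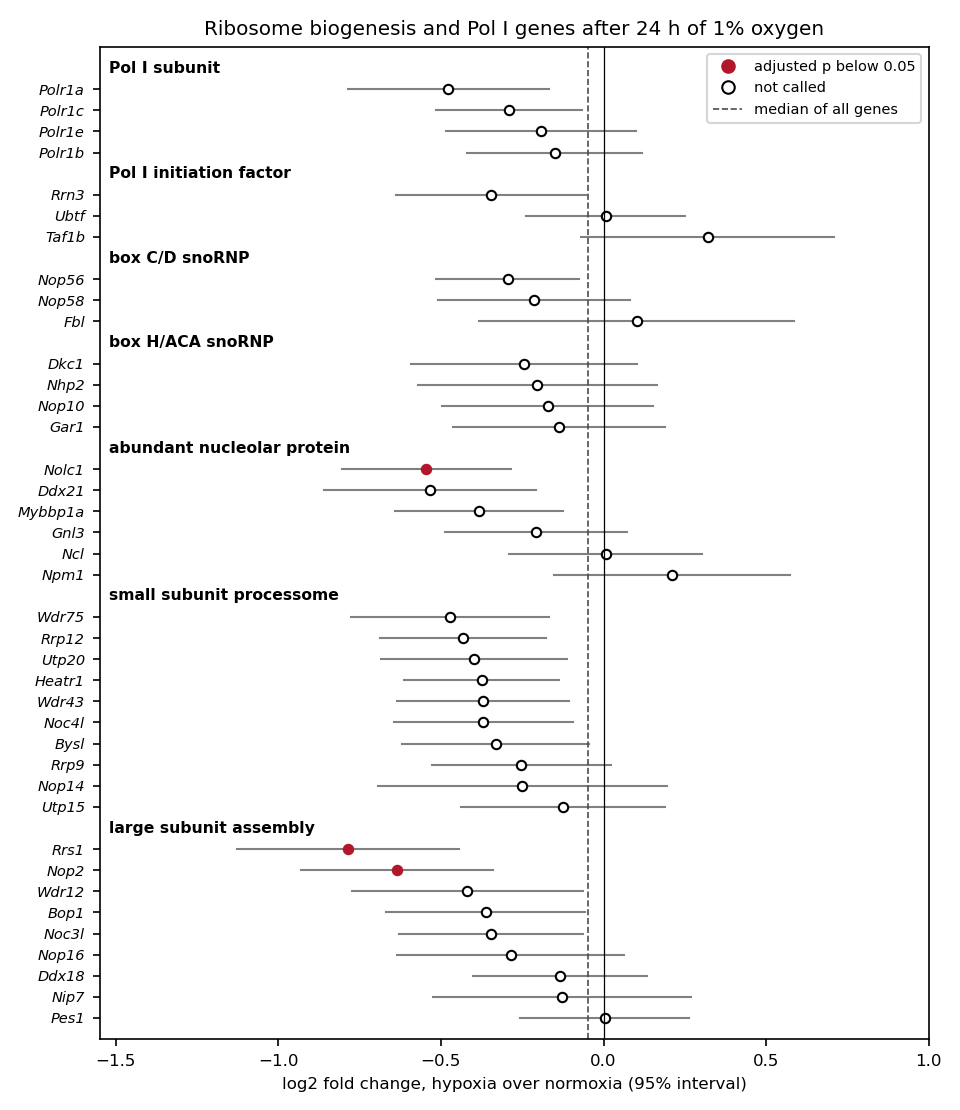
Log2 fold change of each of the 39 genes (x axis, hypoxia over normoxia, points) with its 95% interval (lines), grouped by role; the dashed line is the median of all genes. Rrs1, Nop2 and Nolc1 are filled as called, and 33 points lie below 0.

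Fold changes over all genes differed with the level of the gene. When all genes were put into 4 bands of equal size by mean level, a split made after seeing the data, the median fold change was 0.18 in the lowest band, -0.01 in the next, -0.16 in the band above it and -0.16 in the highest. Of the 39 genes, 26 were in the highest band, with a median of -0.29, and 11 in the band below it, with a median of -0.25. In the highest band 21 of the 26 genes had a negative fold change, against 76.8% of all genes there. In the band below it 11 of 11 had one, against 77.9% of all genes there. The spread of the intensities was also narrower on hypoxia arrays, with an interquartile range of 2.51 to 2.61 log2 units on the hypoxia arrays and 2.77 to 2.90 on the normoxia arrays. The part of this difference in the values below was not tested. Under cyclic loess scaling, which evens out such level-dependent differences, 29 of the 39 genes had a negative fold change with a median of -0.11, 9 were lower at an unadjusted p below 0.05 and 0 were called. Over all genes that scaling gave 50.4% negative fold changes and 6.78% lower at that p.

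The Pol I subunits had a median fold change of -0.24, and 0 of 4 were called, with 2 lower at an unadjusted p below 0.05. At that p 13.5% of all genes were lower, the share to set beside this and the following groups. Polr1a encodes the largest subunit, which forms much of the catalytic centre. Its levels were 3.87, 3.52, 3.59 and 3.32 on the hypoxia arrays, against 3.91, 4.22, 4.18 and 3.92 on the normoxia arrays. All 4 hypoxia arrays lay below the normoxia arrays, the first of them by a small margin, and the fold change was -0.48 ± 0.14 (SE; limma adjusted p = 0.0927). Polr1c, a subunit shared with RNA polymerase III, had levels of 5.23, 5.05, 5.33 and 5.15 in hypoxia, against 5.47, 5.51, 5.46 and 5.49 in normoxia. Its normoxia arrays were nearly level and the groups did not overlap, with a fold change of -0.29 ± 0.10 (SE; limma adjusted p = 0.134). Polr1e (-0.19) and Polr1b (-0.15), the second largest subunit, overlapped between the groups.

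Of the 3 initiation factors, 0 were called, 1 was lower at an unadjusted p below 0.05, and their fold changes ran in both directions. Rrn3, which links Pol I to the promoter and is a known point of growth control, had a fold change of -0.35 (limma adjusted p = 0.161) with overlapping groups. Ubtf, the factor that keeps ribosomal DNA open and active, had a fold change of 0.01 with a 95% interval of -0.24 to 0.25. Taf1b, part of the promoter selectivity factor, gave the highest fold change in the module. Its levels were 2.26, 2.96, 2.87 and 2.66 in hypoxia, against 2.06, 2.60, 2.52 and 2.29 in normoxia. The groups overlapped, the gene rests on 6 rows, and the fold change of 0.32 ± 0.18 (SE) was not called (limma adjusted p = 0.309).

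Of the 3 box C/D snoRNP proteins, 0 were called and 1, Nop56, was lower at an unadjusted p below 0.05. Nop56 is a core scaffold protein. Its levels were 5.59, 5.51, 5.62 and 5.55 in hypoxia, against 5.81, 5.96, 5.75 and 5.94 in normoxia. The groups were apart but the difference was small, -0.29 ± 0.10 (SE; limma adjusted p = 0.126). Its partner Nop58 had a fold change of -0.21 with overlapping groups. Fbl, fibrillarin, is the methyltransferase of these particles, and its mean over 3 rows was 6.08, 6.51, 6.91 and 7.20 in hypoxia, against 6.42, 6.84, 6.61 and 6.42 in normoxia. The hypoxia arrays lay on both sides of the normoxia arrays and the fold change was 0.10 ± 0.22 (SE; limma adjusted p = 0.813).

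The 4 box H/ACA proteins gave 0 calls and 0 differences at an unadjusted p below 0.05. Dkc1, dyskerin, the pseudouridine synthase, had a fold change of -0.25, and its partners Nhp2, Nop10 and Gar1 had -0.20, -0.17 and -0.14. All 4 were negative and all overlapped between the groups. Their 95% intervals together ran from -0.59 to 0.19, so these arrays cannot tell a moderate decrease from none.

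Among the 6 abundant nucleolar proteins, Nolc1 fell. Nolc1 is a phosphoprotein that accompanies snoRNPs and moves between nucleolus and Cajal bodies. Its levels were 4.72, 4.31, 4.47 and 4.47 in hypoxia, against 5.14, 5.01, 4.90 and 5.10 in normoxia. Every hypoxia array lay below every normoxia array, with means of 4.49 ± 0.17 in hypoxia and 5.04 ± 0.11 in normoxia (SD, n = 4 arrays each). The fold change was -0.55 ± 0.12 (SE; limma adjusted p = 0.0451), and the intensity fell by 31.5%. Leaving out hypoxia replicate 1 kept the call, and leaving out any 1 of the other 7 arrays ended it (limma adjusted p = 0.0789 to 0.124). Nolc1 was called under 6 of 21 alternatives, with an adjusted p of 0.0279 to 0.288.

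Ddx21, an RNA helicase that binds Pol I transcripts and snoRNAs, had levels of 4.78, 5.05, 4.71 and 4.91 in hypoxia, against 5.12, 5.70, 5.54 and 5.24 in normoxia. The groups did not overlap, and the fold change was -0.53 ± 0.15 (SE; limma adjusted p = 0.0809). Mybbp1a, a nucleolar protein that binds Myb and takes part in rRNA transcription and processing, had levels of 5.04, 4.92, 4.81 and 4.80 in hypoxia, against 5.10, 5.45, 5.37 and 5.19 in normoxia. Here too the groups were apart, with a fold change of -0.38 ± 0.12 (SE). Gnl3, nucleostemin, had a fold change of -0.21 with overlapping groups. Ncl, nucleolin, had 0.01, with a 95% interval of -0.29 to 0.30.

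Npm1, nucleophosmin, is a histone and ribosomal protein chaperone. Its levels were 8.69, 8.83, 9.18 and 9.38 in hypoxia, against 8.70, 9.04, 8.83 and 8.66 in normoxia. The third and the fourth hypoxia arrays were the highest and the first lay among the normoxia arrays, so that the fold change of 0.21 ± 0.16 (SE) was not called (limma adjusted p = 0.474). Whether its probes also match processed copies of the gene was not checked.

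**Figure D2:**
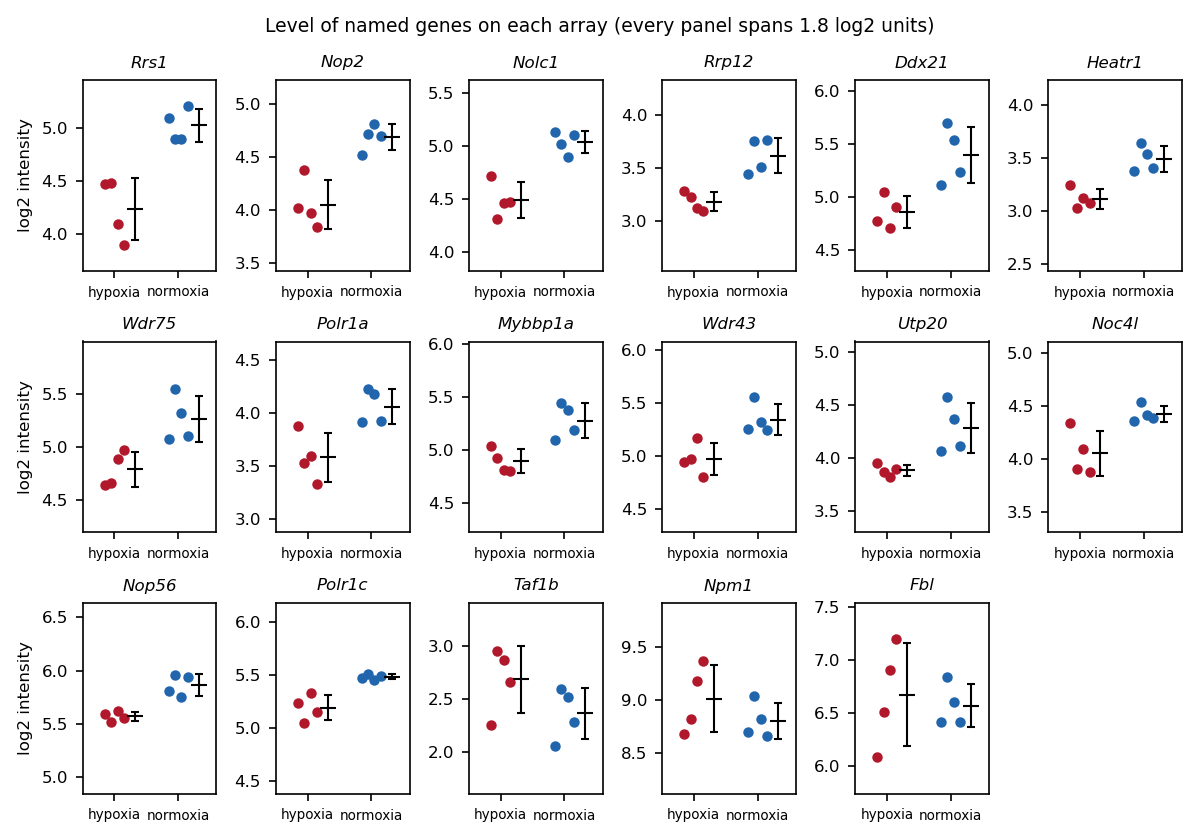
Log2 intensity (y axis) on each of 4 hypoxia arrays (red) and 4 normoxia arrays (blue) for 17 genes, with the mean and SD in black; every panel spans the same range. The first 14 genes were chosen by smallest p in this comparison. They lie lower in hypoxia with no overlap, as in Rrs1 with means of 4.23 in hypoxia and 5.02 in normoxia. Taf1b, Npm1 and Fbl, chosen by highest fold change, overlap.

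In the small subunit processome all 10 genes had a negative fold change, with a median of -0.37. In the highest level band and the band below it, where these genes lie, 76.8% and 77.9% of all genes had one. At an unadjusted p below 0.05, 7 were lower, where 13.5% of all genes were, although 0 were called. Rrp12, a HEAT repeat protein that follows the particle to export, had levels of 3.28, 3.22, 3.12 and 3.10 in hypoxia, against 3.44, 3.75, 3.50 and 3.76 in normoxia. The groups were apart and the fold change was -0.43 ± 0.12 (SE; limma adjusted p = 0.0753). Wdr75, Wdr43 and Heatr1 belong to the subcomplex that joins the transcript first. Wdr75 had levels of 4.64, 4.66, 4.88 and 4.97 in hypoxia, against 5.07, 5.54, 5.32 and 5.10 in normoxia. Wdr43 had levels of 4.95, 4.97, 5.17 and 4.81 in hypoxia, against 5.25, 5.55, 5.32 and 5.24 in normoxia. Heatr1 had levels of 3.24, 3.02, 3.12 and 3.07 in hypoxia, against 3.38, 3.64, 3.53 and 3.40 in normoxia. In all 3 genes the groups were apart by a margin smaller than the spread within normoxia, with fold changes of -0.47, -0.37 and -0.37.

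Utp15, a further member of that first subcomplex, had overlapping groups and a fold change of -0.13. Utp20, a very large scaffold protein of the processome, had levels of 3.96, 3.87, 3.83 and 3.90 in hypoxia, against 4.07, 4.58, 4.37 and 4.12 in normoxia. The hypoxia arrays were close together and the normoxia arrays were spread, with a fold change of -0.40 ± 0.13 (SE; limma adjusted p = 0.115). Noc4l, which acts with Nop14 on the small subunit, had levels of 4.34, 3.90, 4.09 and 3.88 in hypoxia, against 4.36, 4.53, 4.41 and 4.39 in normoxia. Its groups were apart, but the first hypoxia array came close to the lowest normoxia array. The fold changes of Bysl (-0.33), Rrp9 (-0.25) and Nop14 (-0.25) came with overlapping groups.

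Among the 9 measured genes of large subunit assembly, Rrs1 and Nop2 fell. Rrs1, which with its partner brings the 5S ribonucleoprotein into the large subunit, had levels of 4.47, 4.48, 4.09 and 3.89 in hypoxia, against 5.09, 4.89, 4.89 and 5.21 in normoxia. Every hypoxia array was below every normoxia array, and the means were 4.23 ± 0.29 in hypoxia and 5.02 ± 0.16 in normoxia (SD, n = 4 arrays each). The fold change was -0.79 ± 0.15 (SE; limma adjusted p = 0.0356), so that the intensity fell by 42.0%. Rrs1 rests on 4 rows, and 1 of these had groups that did not overlap. Leaving out hypoxia replicate 1 or 2 kept the call, and leaving out any 1 of the other 6 arrays ended it (limma adjusted p = 0.0627 to 0.103). It was called under 8 of 21 alternatives, with an adjusted p of 0.0168 to 0.190.

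Nop2, a cytosine methyltransferase of the large rRNA, had levels of 4.02, 4.38, 3.97 and 3.85 in hypoxia, against 4.52, 4.72, 4.81 and 4.70 in normoxia. The groups did not overlap, with means of 4.05 ± 0.23 in hypoxia and 4.69 ± 0.12 in normoxia (SD, n = 4 arrays each). The fold change was -0.64 ± 0.13 (SE; limma adjusted p = 0.0422), and the intensity fell by 35.6%. Leaving out hypoxia replicate 2 kept the call, and leaving out any 1 of the other 7 arrays ended it (limma adjusted p = 0.0691 to 0.134). Nop2 was called under 6 of 21 alternatives, with an adjusted p of 0.0235 to 0.162.

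Bop1, Wdr12 and Pes1 form one complex that acts in the processing of large subunit precursors. Their fold changes were unequal, with -0.36 for Bop1, -0.42 for Wdr12 and 0.00 for Pes1, whose 95% interval was -0.26 to 0.26. None of the 3 was called, and the difference between them was not tested. Of the other genes of this group, Noc3l had a fold change of -0.35 and Nop16 of -0.29. Ddx18 and Nip7 had -0.13 each.

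Array by array, the median of the 39 genes, each set against its own mean over the 8 arrays, was -0.14, -0.19, -0.03 and -0.11 in hypoxia, against -0.02, 0.30, 0.17 and 0.07 in normoxia. All 4 hypoxia medians lay below those of normoxia, but hypoxia replicate 3 and normoxia replicate 1 were nearly equal. The second normoxia array was the highest, with 2 of the 39 genes below their own mean. The same measure over all genes lay between -0.04 and 0.03 on every array. That measure joins level bands whose fold changes differed. The median fold change over all genes was 0.18 in the lowest band. It was -0.16 in the highest band and in the band below it, where most of the 39 genes lie. In bulk RNA, a smaller number of cells making ribosomes and less RNA per cell cannot be told apart.

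**Figure D3:**
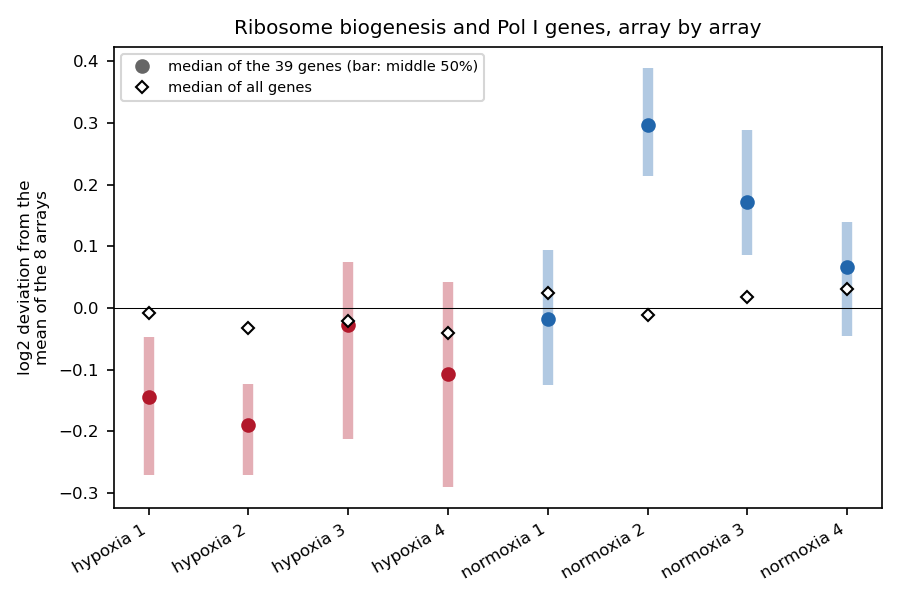
Median deviation of the 39 genes from their own means (circles, with bars over the middle 50% of the genes) and of all genes (diamonds) on each array, in log2 units. The hypoxia circles lie between -0.19 and -0.03 and the normoxia circles between -0.02 and 0.30, while the diamonds stay near 0. The diamonds join all level bands, and genes of similar level to the 39 are not drawn apart.

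Each gene was measured by 3 to 67 rows, and the rows of a gene share its RNA and are not replicates. Over the 847 rows, 73.1% had a lower mean in hypoxia, against 55.0% of all rows that name 1 gene. The groups did not overlap and were lower in hypoxia in 90 rows (10.6%, against 4.74% of all), and higher in 9 rows (1.06%, against 3.15% of all). All 4 rows of Rrs1, 19 of 21 of Nop2 and 18 of 22 of Nolc1 were negative. Heatr1 had 48 of 65 negative rows, with 10 rows apart. Among 718 rows at or above the table median, called bright rows here, 77.3% were negative. Their median difference was -0.35, against -0.19 over all bright rows, whose negative share was not counted. In 84 of the 718 (11.7%) the groups were apart and lower in hypoxia, against 6.75% of all bright rows.

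The mean of Fbl joined rows that moved in opposite directions. Its brightest row was 8.81, 8.91, 8.97 and 8.74 in hypoxia, against 9.75, 9.46, 9.64 and 10.02 in normoxia, a difference of -0.86. A second row was also lower on every hypoxia array, by -0.35. A further row was 4.16, 5.66, 6.45 and 7.64 in hypoxia, against 3.64, 5.51, 4.81 and 3.87 in normoxia, a difference of 1.52 with overlapping groups. With the median of the 3 rows in place of their mean, the fold change of Fbl was 0.72 in place of 0.10, and it was not called. Which of these rows follows the Fbl transcript was not tested.

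The 22 rows of Ncl ran from -1.05 to 0.53. Of these, 5 were lower on all hypoxia arrays and 0 higher, against 4.74% and 3.15% of all rows that name 1 gene. Npm1 had 2 of 17 rows higher on every hypoxia array and 0 lower. The rows of these 3 genes were examined after their values had been seen.

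**Figure D4:**
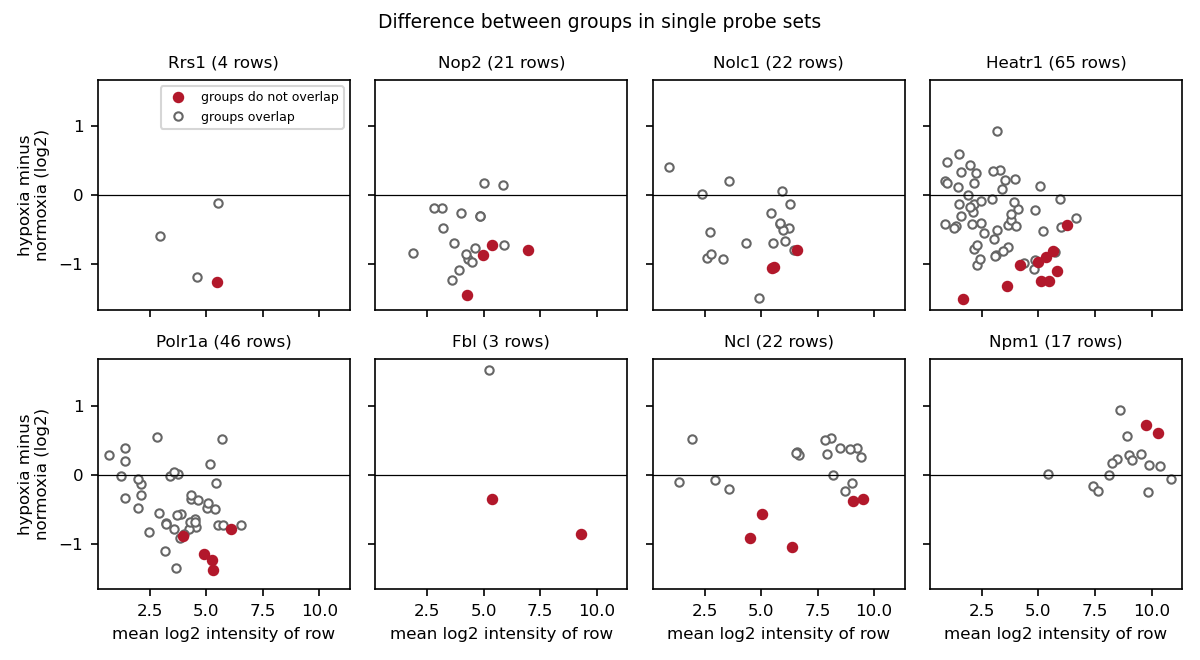
Difference in log2 intensity between hypoxia and normoxia (y axis) against mean log2 intensity (x axis) for each row of 8 genes; filled points are rows whose groups do not overlap. The rows of Rrs1 and most of those of Nop2 and Nolc1 lie below 0, whereas the 3 rows of Fbl lie at -0.86, -0.35 and 1.52.

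The rest of the pathway was read the same way. The further genes were those of Pol I, the processome, large subunit assembly, the snoRNPs and RNA decay, including subunits shared by the polymerases. Of 133 measured, 2 were called lower, a share close to the 1.2% of all genes, and 0 higher. A negative fold change was found in 119 (89.5%, against 57.0% of all genes), with a median of -0.24, against -0.05 over all genes. In the highest level band and the band below it, 76.8% and 77.9% of all genes had one, with medians of -0.16. How many of the 133 genes lie in each band was not counted. With bright rows only, the median was -0.29 over the 133 genes, against -0.19 over all genes. At an unadjusted p below 0.05, 45 were lower, where 13.5% of all genes were, and 0 were higher. Polr1d, a subunit shared by Pol I and Pol III, had levels of 5.47, 5.44, 5.64 and 5.67 in hypoxia, against 6.02, 5.98, 6.07 and 5.97 in normoxia (limma adjusted p = 0.0491). Tbl3, a scaffold protein of the processome, had 2.95, 3.22, 2.94 and 2.80 in hypoxia, against 3.65, 3.42, 3.63 and 3.41 in normoxia (limma adjusted p = 0.0491). In both genes the groups were apart.

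Closest to the Pol I subunits, 8 other Pol I subunits and factors had a median fold change of -0.14, with 5 of 8 negative, 1 called lower and 2 lower at an unadjusted p below 0.05. The median was -0.26 over 44 other small subunit factors, -0.24 over 48 other large subunit factors, -0.22 over 17 genes of the RNA exosome and rRNA decay, -0.17 over 11 other snoRNP factors and nucleolar proteins, and -0.09 over 5 subunits shared by the polymerases. Outside those 133 genes, 10 Pol III subunits had a median of -0.19, with 0 called and 3 lower at an unadjusted p below 0.05. The 7 RNA polymerase II subunits, which make messenger RNA and are no part of the pathway, had a median of -0.32. None of the 7 was called and 4 were lower at an unadjusted p below 0.05. At that p 13.5% of all genes were lower, and the median over all genes was -0.05. It was -0.16 in the highest level band and in the band below it.

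Cell division genes were lower in the same arrays. Of 17 such genes, which act in mitosis or copy DNA, 5 were called lower, against 1.2% of all genes, and 0 higher. Those called were Aurkb, Mcm2, Kif11, Mcm6 and Foxm1. At an unadjusted p below 0.05, 13 were lower, where 13.5% of all genes were. The 17 genes had a median fold change of -0.45, against -0.05 over all genes and -0.16 in the highest level band. With bright rows only, the median was -0.52 over 16 of these genes, against -0.19 over all genes. Their summed intensity was 315 to 385 on the hypoxia arrays and 437 to 516 on the normoxia arrays. The part of this difference in the ribosome biogenesis values was not tested.

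As a check of the labels, Bnip3, Egln3 and Pdk1, known targets of hypoxia-inducible factors, were called higher, with levels of 8.73, 4.46 and 4.52 in hypoxia and 5.33, 2.20 and 2.44 in normoxia. All 11 fibroblast markers were at or above the table median, and their summed intensity was 3684 to 3947 in hypoxia and 3910 to 4109 in normoxia. Pdgfrb was called lower among these markers. The table median, 2.35, lies within the second lowest of the 4 level bands of all genes, so all genes of the higher bands pass it. Of the markers of other cell types, 5 of 7 epithelial, 1 of 5 endothelial, 2 of 5 blood, 3 of 5 neural and 4 of 5 muscle genes were at or above that median, and 0 were called. Pairwise correlations of arrays were 0.859 to 0.878 within hypoxia, 0.923 to 0.944 within normoxia and 0.876 to 0.905 between the groups, so that hypoxia arrays were no closer to each other than to normoxia arrays.

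The median of the 39 genes stayed below that of all genes under each setting compared on a log2 scale. It ran from -0.36, with the median of rows as the level of a gene, to -0.11 under cyclic loess. Restricting the levels to bright rows brought the medians closer, to -0.31 for the 39 genes and -0.19 for all genes, and 0 of the 39 were called. With bright rows 36 of the 39 were negative, against 75.7% of all genes, and an unadjusted p below 0.05 was found for 19, all lower, against 20.4% of all genes. Under quantile normalization 33 were negative, against 56.5% of all genes, and 16 passed that p in the same direction, against 10.2% of all genes.

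**Figure D5:**
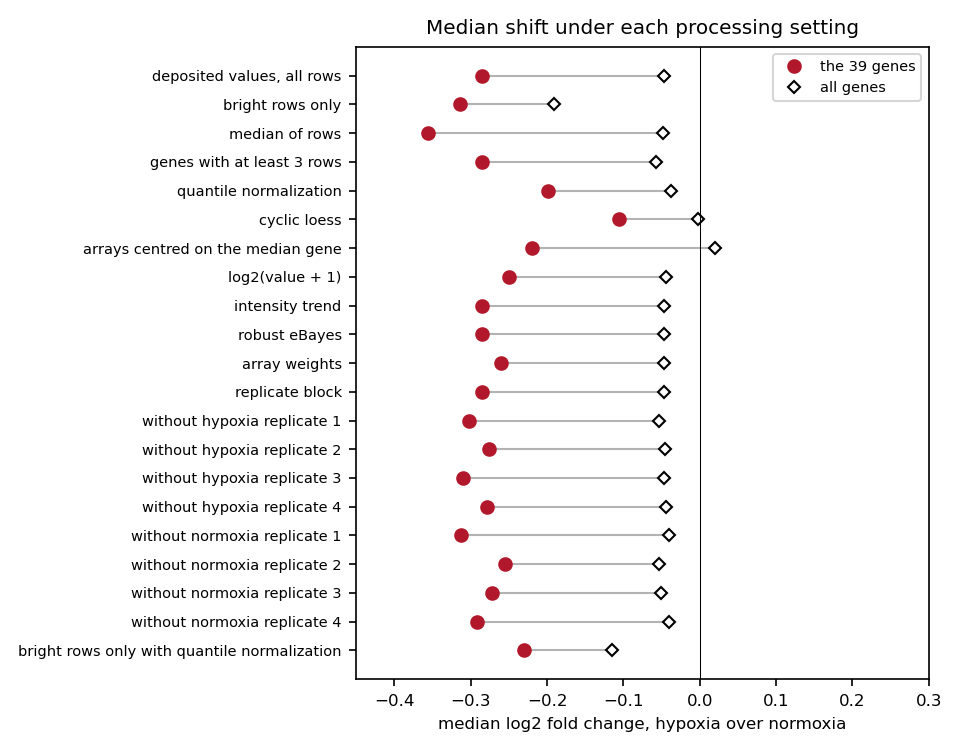
Median log2 fold change of the 39 genes (circles) and of all genes (diamonds) under each processing setting, hypoxia over normoxia. The circles run from -0.36 to -0.11 and stay to the left of the diamonds, with the shortest distance under cyclic loess.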

How the data were processed

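The deposited table held linear signal intensity of 641130 probe sets (rows) on each of 8 Mouse Exon 1.0 ST arrays. How the authors corrected the background, normalized and summarized these intensity values is not given in the sources used here. Deposited intensities were put on the log2 scale with no pseudocount and no further normalization. The platform annotation named 1 gene for 48.0% of rows, several for 7047 and none for 326092. Of 21842 symbols, 17794 matched a current RefSeq symbol (GRCm38.p6), 3985 a synonym, and 63 neither.

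A gene's level was the mean log2 over rows naming it alone, dim rows included. Averaging rows of different exons hides changes in exon use. Groups, as labelled, were set against each other with limma 3.58.1 under R 4.3.3 (two-sided, lmFit then eBayes, Benjamini-Hochberg over all 21656 genes, threshold 0.05), and the code was tested on simulated data. The arrays are described as biological replicates, and no batch was given. The methods of the study state more replicates per condition than the 4 arrays per group in the labels, which were followed. Array values are given for the 14 genes of smallest p and the 3 highest fold changes. Members and lists were chosen with earlier results of these data known. The 21 alternatives covered row filters, scaling, fit options, a replicate block and each array left out.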

Additional observations from a re-analysis of the deposited data

Results flagged for a closer look

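Among 78 sets of 4 arrays (39 genes in each group), 1 held an array that stood apart by Dixon's test at the 95% level, and about 1 in 20 such sets is expected to by chance. Gnl3 was 6.11 on hypoxia replicate 3, and 5.85 to 5.89 on the other hypoxia arrays. The gap made up 0.856 of the range.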

How the results depend on the processing

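Of the 39 genes, 3 were called lower on the deposited values, and 3 also with genes of at least 3 rows, log2(value + 1), an intensity trend, robust eBayes or array weights. Centring arrays on the median gene left 1 (Rrs1). The count was 0 with bright rows only, the median of rows, quantile normalization, cyclic loess, relative ranks, the replicate block, and bright rows with quantile normalization, which was chosen after seeing the data. It was 0 to 2 with an array left out. Rrs1 was called only without hypoxia replicate 1 or 2 there, Nop2 only without hypoxia replicate 2, and Nolc1 only without hypoxia replicate 1. The cause was not tested. Under the settings that gave 0 calls, 10 to 19 genes were lower at an unadjusted p below 0.05, or 9 under cyclic loess.

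At an unadjusted p below 0.05, the count of 19 became 9 under cyclic loess, 12 with centred arrays, 10 with ranks, and 14 to 19 with an array left out. Negative fold changes numbered 29 to 36. The median became -0.11 under cyclic loess and ran from -0.31 to -0.26 with an array left out. Its distance to all genes was -0.24, against -0.12 with bright rows, -0.10 under cyclic loess, -0.12 with bright rows and quantile normalization, and -0.27 to -0.20 with an array left out. The fold change of Fbl reversed to -0.072 without hypoxia replicate 4, and ran from -0.072 to 0.30 with an array left out. It was 0.72 with the median of rows. Ubtf, Ncl, Pes1, Nip7, Gar1, Utp15, Ddx18, Nhp2, Nop58 and Nop10 also changed sign under at least 1 alternative, none of them called.

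Over all genes, 259 were called lower and 217 higher. The counts were 150 lower and 100 higher with bright rows, 33 and 71 with the median of rows, 494 and 303 with at least 3 rows, 82 and 134 with quantile normalization, 59 and 183 under cyclic loess, 71 and 243 with centred arrays, 10 and 39 with ranks, 428 and 230 with log2(value + 1), 451 and 232 with a trend, 448 and 345 with array weights, and 53 and 126 with bright rows and quantile normalization. With an array left out, 20 to 141 were lower and 69 to 156 higher. The share of higher calls was 45.6%, and it was 62.0% with quantile normalization, 75.6% under cyclic loess and 77.4% with centred arrays.

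The replicate numbers did not pair the samples: same-numbered arrays deviated from their group means with correlations of 0.063, -0.163, 0.057 and -0.052. The replicate block gave 19 genes lower and 64 higher. Fbl, Rrs1, Taf1b and Nhp2 rest on 3 to 6 rows each.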
